A study of Mus musculus with 6 samples.

Results

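The genes described here are 10 metabolic isozyme genes, *Eno3*, *Pgam1*, *Pgam2*, *Pygm*, *Pygl*, *Pygb*, *Pfkm*, *Ckb*, *Ckm* and *Ckmt2*, out of the 55487 genes of the deposited count table. Their rows were found by gene symbol. The set was chosen by the lower reads of *Eno3* in the si-*Snhg18* libraries, to see how the other muscle-type isoforms and their ubiquitous counterparts behaved in the same contrast, so the values of the members in that contrast are given as a description and no test is read from them. The cells were mouse pulmonary artery smooth muscle cells (mPASMCs), bought from a supplier and kept in culture. They were transfected by lipofection with a control small interfering RNA (si-NC, 3 libraries) or with one directed at the long non-coding RNA *Snhg18* (si-*Snhg18*, 3 libraries), and no other treatment is named for the sequenced cells. The oxygen level, the time after transfection and the passage of each library are not given in the sources used here. Libraries of each group are numbered 1 to 3, but no source says that they came from separate cultures, so errors and p-values measure the spread between these 6 libraries, which may be technical.

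Many enzymes of energy metabolism exist as isozymes encoded by separate genes, with a form enriched in striated muscle beside forms found in other tissues. Enolase turns phosphoglycerate into phosphoenolpyruvate, with *Eno1* as the ubiquitous form, *Eno2* as the neuronal form and *Eno3* as the muscle form. Phosphoglycerate mutase acts one step earlier (*Pgam1* in most tissues, *Pgam2* in muscle), and phosphofructokinase commits sugar to glycolysis (*Pfkm* in muscle, *Pfkl* in liver, *Pfkp* in platelets and other cells). Glycogen phosphorylase releases glucose units from glycogen and has muscle (*Pygm*), liver (*Pygl*) and brain (*Pygb*) forms. Creatine kinase buffers ATP with phosphocreatine, through the cytosolic forms *Ckm* in muscle and *Ckb* in brain and smooth muscle and the mitochondrial form *Ckmt2* in sarcomeric muscle.

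Between 18097718 and 25988746 reads were counted per library. Levels are given as CPM, read counts scaled to the library total with TMM factors, and 3 reads, equal to 0.115 to 0.164 CPM, were taken as the floor of a library. *Snhg18* itself was read at 23.5, 22.4 and 22.2 CPM in si-NC and at 10.6, 11.2 and 9.97 CPM in si-*Snhg18*. The groups did not overlap, and *Snhg18* was lower after its knockdown (log2 fold change -1.10, SE 0.10, edgeR adjusted p = 0.00727). All 12 smooth muscle markers passed the filter on low counts, with *Cald1*, *Acta2* and *Tagln*, which encode caldesmon, smooth muscle actin and transgelin, at 1910, 867 and 684 CPM in si-NC. Of the markers of other cell types, 4 of 8 endothelial, 4 of 9 leukocyte, 6 of 7 fibroblast and 1 of 6 epithelial genes passed the filter, led by the fibroblast marker *Pdgfra* at 477 CPM and the leukocyte marker *Cd53* at 109 CPM in si-NC. In bulk RNA, fewer cells of a type and less RNA per cell cannot be told apart. The libraries numbered 2 deviated from their group means most alike, and fold changes are also given without them.

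Only part of the muscle-type set was read in these cells. Per kilobase of exon, the scale on which genes can be compared, the si-NC levels in CPM were 550 ± 82.1 (SD, n = 3) for *Pgam1*, 46.9 ± 2.59 for *Ckb*, 27.1 ± 0.511 for *Eno3*, 22.5 ± 0.641 for *Pygb*, 18.8 ± 1.57 for *Pygl* and 12.5 ± 0.827 for *Pfkm*. Neighbours in this order did not overlap between the si-NC libraries. Far below them, *Pgam2* stood at 0.231 ± 0.22 and *Pygm* at 0.146 ± 0.0347, and the ranges of this pair overlapped. No read was counted for *Ckm* or *Ckmt2* in any of the 6 libraries, which allows up to the floor of 0.115 to 0.164 CPM per library, for counting error only. *Eno3* and *Pfkm* were thus the muscle-type members with more than 20 reads in any library.

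In si-*Snhg18* the order of the per-kilobase levels changed at a single place. *Pgam1* stayed first at 570 ± 145 CPM per kilobase (SD, n = 3), followed by *Ckb* at 36.8 ± 2.73, *Pygb* at 18.9 ± 1.28, *Pygl* at 16.5 ± 0.484 and *Pfkm* at 12.6 ± 0.284. *Eno3* moved from the third place to the sixth, at 12.0 ± 1.63, where its libraries (10.3 to 13.5) spanned those of *Pfkm* (12.2 to 12.8). The places depend on the deposited exon lengths. By CPM, *Eno3* was already below *Pygl* in si-NC (39.4 and 56.2) and was below *Pfkm* in si-*Snhg18* (17.5 and 35.4). The plot of levels per kilobase shows the members on either side of a wide gap.

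**Figure D1:**
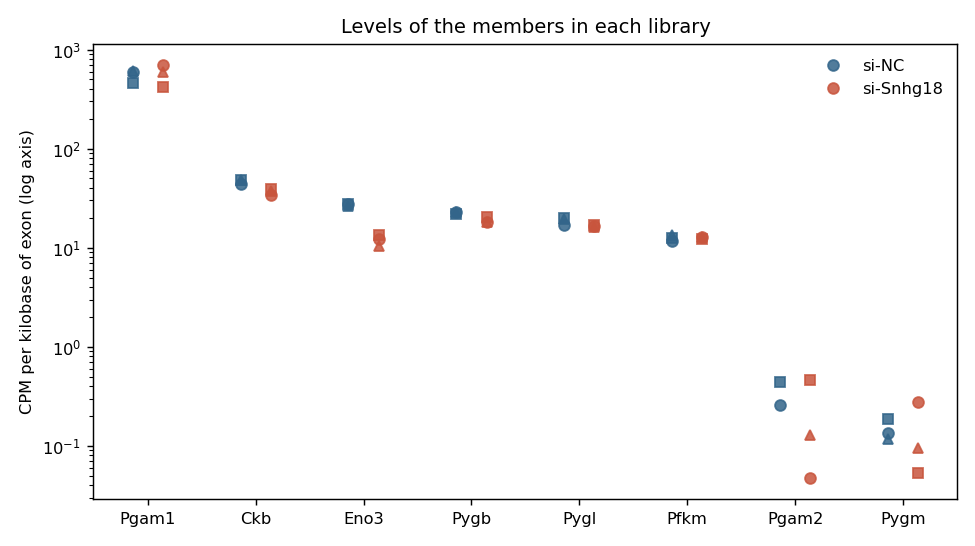
Level of each member in CPM per kilobase of exon (log axis), with 1 point per library, si-NC in blue and si-*Snhg18* in red, and a circle, square or triangle for libraries 1, 2 and 3. Points at 0 are not drawn (*Pgam2* in si-NC 3, and *Ckm* and *Ckmt2* in all libraries). *Eno3* drops from 27.1 to 12.0, next to *Pfkm*, while *Pgam2* and *Pygm* lie under 0.5 in every library.

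The members also differed in the sequence around their start sites, which the choice of the set did not use. RefSeq promoter windows on GRCm38.p6, from 250 bases before to 50 bases after the start, were found for all 10 members, with 4 alternative starts for *Pfkm*. The E-box CAGCTG, a palindrome and so read on both strands at once, is a motif that myogenic basic helix-loop-helix factors can bind, and 16.3% of all 32851 windows of this length held it. It was found in the windows of *Eno3*, *Pgam2*, *Pygm*, *Ckm* and *Ckmt2* and in none of those of *Pgam1*, *Pygl*, *Pygb*, *Ckb* and *Pfkm*. The same 5 genes had few CpG dinucleotides, with observed over expected values of 0.05 to 0.23, against 0.65 to 0.95 for *Pgam1*, *Pygl*, *Pygb* and *Ckb*. Over all windows the median was 0.384, and 35.7% of them were under 0.25. The 4 *Pfkm* windows were at 0.19 to 0.46. The GC box GGGCGG, searched on both strands, was present in 35.7% of all windows and among the members in those of *Pgam1*, *Pygl* and *Ckmt2*, where it overlapped no E-box. A match is a description of these letters and not a bound site. Of the myogenic factors themselves, *Myod1*, *Myf5* and *Myf6* had no read in any library.

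The windows of *Eno3* and of the mutase and cytosolic creatine kinase pairs are printed, *Eno3* as the gene that chose the set and the pairs because they set a muscle form beside another form of the same enzyme. Each reads 5′ to 3′ on the strand of the gene, with CAGCTG in capitals, and positions count from 1 at the annotated start. In *Eno3* the motif lies after the start, at position 39. In *Pgam2* and *Ckm* it lies before the start, at -125 and -249. The windows of the other members are not printed, among them those of *Pfkm*, a muscle form without the motif.

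*Eno3* (chr11:70656926-70657225, plus strand): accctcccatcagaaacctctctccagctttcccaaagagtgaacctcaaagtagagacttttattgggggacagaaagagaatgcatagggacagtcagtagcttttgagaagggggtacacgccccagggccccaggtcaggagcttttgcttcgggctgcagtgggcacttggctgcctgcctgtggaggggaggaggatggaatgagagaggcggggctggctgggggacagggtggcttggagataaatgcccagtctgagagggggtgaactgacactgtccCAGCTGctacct
*Pgam2* (chr11:5803747-5804046, minus strand): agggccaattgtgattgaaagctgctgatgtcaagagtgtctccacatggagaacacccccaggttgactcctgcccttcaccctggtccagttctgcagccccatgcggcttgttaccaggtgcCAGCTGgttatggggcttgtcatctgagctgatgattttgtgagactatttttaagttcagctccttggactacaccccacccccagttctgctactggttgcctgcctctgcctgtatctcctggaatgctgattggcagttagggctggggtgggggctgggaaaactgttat
*Pgam1* (chr19:41911621-41911920, plus strand): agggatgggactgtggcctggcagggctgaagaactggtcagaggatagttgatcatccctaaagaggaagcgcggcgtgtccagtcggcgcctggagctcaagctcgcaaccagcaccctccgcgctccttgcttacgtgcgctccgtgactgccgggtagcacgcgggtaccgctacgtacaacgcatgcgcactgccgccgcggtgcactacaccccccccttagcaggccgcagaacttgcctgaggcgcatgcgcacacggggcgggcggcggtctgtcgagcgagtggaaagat
*Ckm* (chr7:19410844-19411143, plus strand): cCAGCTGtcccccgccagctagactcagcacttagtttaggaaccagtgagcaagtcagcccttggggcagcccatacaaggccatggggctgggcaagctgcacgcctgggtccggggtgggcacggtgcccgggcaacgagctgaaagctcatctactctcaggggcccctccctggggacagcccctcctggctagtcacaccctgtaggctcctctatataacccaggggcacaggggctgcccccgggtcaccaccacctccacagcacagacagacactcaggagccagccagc
*Ckb* (chr12:111672289-111672588, minus strand): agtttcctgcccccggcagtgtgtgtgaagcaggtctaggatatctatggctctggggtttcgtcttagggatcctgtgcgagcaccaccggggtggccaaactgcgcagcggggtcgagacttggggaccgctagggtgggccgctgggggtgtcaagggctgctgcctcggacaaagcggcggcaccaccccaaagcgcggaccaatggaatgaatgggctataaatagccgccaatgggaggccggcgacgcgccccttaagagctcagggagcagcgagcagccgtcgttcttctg

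*Eno3* (ENSMUSG00000060600, chr11:70657202-70662513 on the plus strand of GRCm38) was read at 39.8, 40.0 and 38.6 CPM in si-NC, from 921, 979 and 911 reads. In si-*Snhg18* it was read at 17.9, 19.6 and 15.0 CPM, from 452, 511 and 273 reads. Every si-*Snhg18* library lay below every si-NC library, and the mean of 17.5 ± 2.37 CPM was 44.4% of the si-NC mean of 39.4 ± 0.743 CPM (SD, n = 3). The log2 fold change was -1.17 (SE 0.12), and 1.28% of the 14531 tested genes had one as low or lower. Between same-numbered libraries it was -1.15, -1.02 and -1.37, and with the numbers entered as a replicate block the estimate was -1.18 (SE 0.10). It was -1.25 without both libraries numbered 2. Without si-NC 1, si-NC 3 or si-*Snhg18* 3 its log2 fold change stayed between -1.18 and -1.07 but no gene of the whole table passed an adjusted p of 0.05 in edgeR, although 2464 to 2731 genes had an unadjusted p under 0.05.

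*Eno3* shared only short exact runs of sequence with its relatives, and similarity short of an exact match was not measured. None of its 1825 windows of 50 transcript bases occurred in a GENCODE transcript of another gene, and the longest run it shared exactly with *Eno1* was 20 bases and with *Eno2* 23 bases. No annotated gene overlapped its span. The other enolases did not pass the test. *Eno1* was at 3970, 3400 and 3940 CPM in si-NC and at 4120, 3090 and 3790 CPM in si-*Snhg18* (log2 fold change -0.04, SE 0.12, edgeR adjusted p = 0.869), and *Eno2* had a log2 fold change of -0.17 (SE 0.11, adjusted p = 0.373). Of the 3 tested enolase genes outside the set, none passed the test with edgeR, DESeq2 or limma-voom, and none had an unadjusted p under 0.05. Over all tested genes 7.36% passed in edgeR. A share of 26.0% of the 50-base windows of *Eno1* also occurred in transcripts of other genes, mainly *Eno1b*, so its level is less certain.

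*Pfkm*, the other muscle-type isoform with a clear level, was at 33.2, 34.9 and 37.8 CPM in si-NC and at 36.0, 34.5 and 35.7 CPM in si-*Snhg18*. The groups overlapped, and the means were 35.3 ± 2.33 and 35.4 ± 0.799 CPM (SD, n = 3), with a log2 fold change of 0.00 (SE 0.08). The libraries of the same number gave 0.12, -0.02 and -0.08. *Pfkm* (chr15:98092589-98132451, plus strand) shares 1156 bases with the protein-coding gene *Senp1* on the opposite strand, which encodes a SUMO protease and was at 35.3 to 37.0 CPM in si-NC and 38.8 to 40.3 CPM in si-*Snhg18* (log2 fold change 0.14, SE 0.07, edgeR adjusted p = 0.275). The strand setting of the counting is not given in the sources used here, so reads of this stretch may have been counted for either gene. A second annotated transcript in its span, *Gm26513*, had 1 to 7 reads.

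The remaining muscle-type members gave too few reads to compare. *Pgam2* had 5, 9 and 0 reads in the si-NC libraries and 1, 10 and 2 in the si-*Snhg18* libraries, a sum of 14 against 13. *Pygm* had 9, 13 and 8 reads against 20, 4 and 5, a sum of 30 against 29. Neither passed the filter, and the groups overlapped for each of these genes. Without the filter the log2 fold changes were -0.11 (SE 1.13) for *Pgam2* and -0.05 (SE 0.66) for *Pygm*. Whether a difference of the size seen for *Eno3* could be detected at this depth was not tested. A run of 62 bases was shared exactly by *Pygm* and *Pygb* transcripts, so single reads of *Pygm* could come from *Pygb*. *Ckm* and *Ckmt2* stayed at 0, as did *F730035M05Rik*, which overlaps *Pygl* on the opposite strand, and the antisense genes *A930016O22Rik* in *Ckm* and *1700119I11Rik* in *Ckmt2* had at most 1 and 2 reads.

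**Figure D2:**
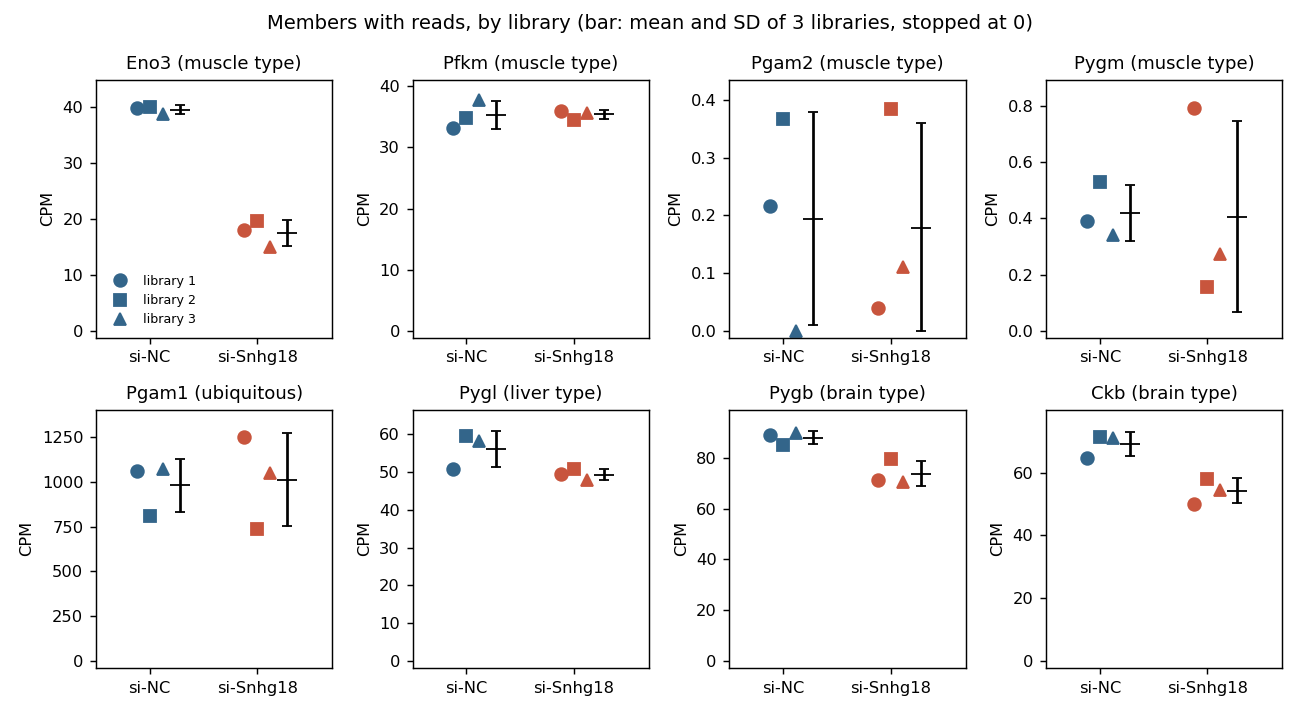
CPM of the 8 members with reads, 1 panel per gene with its own axis from 0, with si-NC in blue, si-*Snhg18* in red, a circle, square or triangle for libraries 1, 2 and 3, and a black bar for the mean and SD of 3 libraries. *Eno3* lies at 38.6 to 40.0 in si-NC and 15.0 to 19.6 in si-*Snhg18*, and the groups of *Pygl*, *Pygb* and *Ckb* are also apart but by less.

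Among the ubiquitous, liver and brain forms, *Pgam1* was the most abundant and the most variable. It was at 1060, 809 and 1070 CPM in si-NC and at 1250, 738 and 1050 CPM in si-*Snhg18*, with the library numbered 2 lowest in each group. The groups overlapped, and the log2 fold change of 0.05 (SE 0.21) became 0.03 (SE 0.08) with the replicate block. A share of 36.2% of the 50-base windows of *Pgam1* transcripts also occurred in other annotated transcripts, led by the processed copy *Pgam1-ps2*, which was at 7.15 to 15.1 CPM.

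*Ckb*, the form of creatine kinase that smooth muscle is known to use, was at 64.7, 71.5 and 71.1 CPM in si-NC and at 50.1, 58.1 and 54.5 CPM in si-*Snhg18*. The groups did not overlap, with means of 69.1 ± 3.82 and 54.2 ± 4.02 CPM (SD, n = 3) and a log2 fold change of -0.35 (SE 0.09). The same-numbered libraries gave -0.37, -0.30 and -0.38. *Ckb* did not pass an adjusted p of 0.05 without the block and did so with it (log2 fold change -0.35, SE 0.06) and with DESeq2.

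The brain and liver phosphorylases were also read lower in si-*Snhg18*. *Pygb* was at 89.1, 85.1 and 89.7 CPM in si-NC and at 71.2, 79.6 and 70.6 CPM in si-*Snhg18*, with a log2 fold change of -0.25 (SE 0.07). *Pygl* was at 50.8, 59.5 and 58.3 CPM in si-NC and at 49.4, 50.8 and 47.9 CPM in si-*Snhg18*, with a log2 fold change of -0.19 (SE 0.09). The groups of both genes did not overlap by CPM, but for *Pygl* the highest si-*Snhg18* library and the lowest si-NC library were both at 50.8 CPM to 3 digits. *Pygb* passed the test with the block and with DESeq2 and *Pygl* with neither.

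Counted over the set, 6 of the 10 members passed the filter on low counts, and 1 of them, *Eno3*, passed an adjusted p of 0.05. Over all tested genes 7.36% passed, and 3.71% passed and were lower. With the replicate block 3 members passed (*Eno3*, *Pygb* and *Ckb*, all lower), against 27.2% of all tested genes, 13.6% of them lower. The groups did not overlap for 4 members, *Eno3*, *Ckb*, *Pygb* and *Pygl*, against 30.9% of all tested genes, and in each of these the si-*Snhg18* libraries were the lower ones, against 15.5%. Since this contrast chose the set, nothing is read from these counts. The median log2 fold change of the 6 members was -0.22, and -0.19 without *Eno3*, against 0.01 over all tested genes. Without both libraries numbered 2 the log2 fold changes were -0.38 for *Ckb*, -0.34 for *Pygb*, -0.17 for *Pygl*, 0.11 for *Pgam1* and 0.01 for *Pfkm*. The plot of the members' fold changes sets *Eno3* apart from the other 5, which lie between -0.35 and 0.05.

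**Figure D3:**
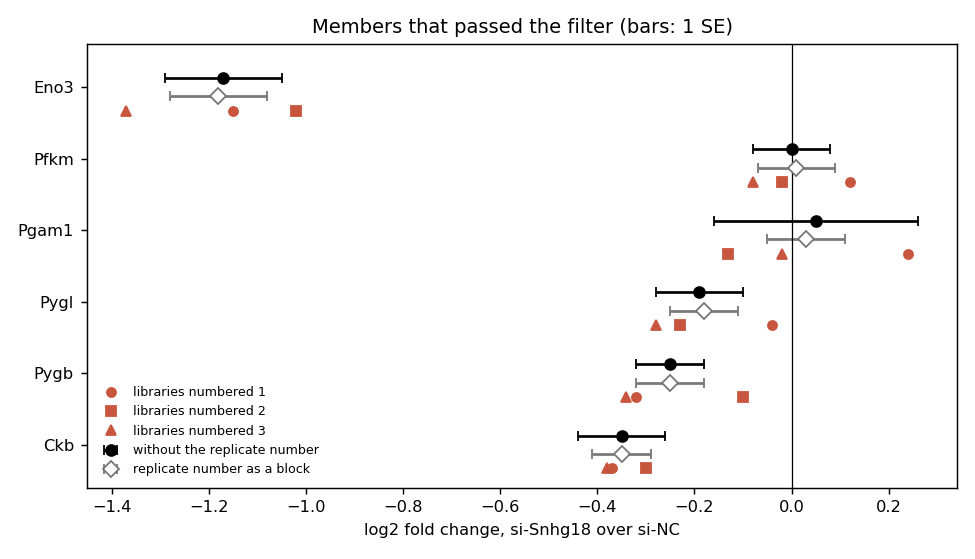
Log2 fold change of si-*Snhg18* over si-NC for the 6 members that passed the filter, without the replicate number (black circles) and with it as a block (grey diamonds), with bars of 1 SE, and below them in red the ratio within each pair of same-numbered libraries. *Eno3* is at -1.17, and every pair of libraries lies below 0 for *Eno3*, *Ckb*, *Pygb* and *Pygl* and on both sides of 0 for *Pfkm* and *Pgam1*.

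In each isozyme family the muscle form made up a small share of the signal. *Eno3* made up 1.37%, 1.60% and 1.34% of the per-kilobase enolase signal of *Eno1*, *Eno2* and *Eno3* in si-NC and 0.599%, 0.875% and 0.546% in si-*Snhg18*, so that the share was lower in every si-*Snhg18* library. *Eno2* made up less than *Eno3* in both groups, with means of 0.366% and 0.336%. The enolase sum was 1900 ± 157 CPM per kilobase in si-NC and 1830 ± 259 in si-*Snhg18* (SD, n = 3), a difference smaller than its spread. *Pfkm* made up 5.84% ± 0.719 of phosphofructokinase in si-NC and 5.09% ± 0.912 in si-*Snhg18*, with overlapping libraries, beside *Pfkl* (log2 fold change 0.23, SE 0.14, edgeR adjusted p = 0.345, and 0.0307 with the block) and *Pfkp* (0.25, SE 0.25, adjusted p = 0.564). *Pygm* made up 0.353% ± 0.083 and 0.403% ± 0.339 of glycogen phosphorylase, and *Pgam2* 0.0464% ± 0.048 and 0.0462% ± 0.0557 of phosphoglycerate mutase, on the few reads given above. The phosphorylase sum was 41.4 ± 1.35 CPM per kilobase in si-NC and 35.5 ± 1.67 in si-*Snhg18*, with no overlap of the groups, and *Pygb* and *Pygl* made up 54.4% and 45.3% of it in si-NC. *Ckb* made up all of the cytosolic creatine kinase signal.

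Other genes of these pathways were taken from lists. Of 20 genes of glycolysis and lactate transport outside the set, all were tested and none passed (13 higher, 7 lower, median log2 fold change 0.06). Over all tested genes 7.36% passed. No gene of the list had an unadjusted p under 0.05 in edgeR and 1 had in DESeq2, against 3613 and 3735 of all 14531 tested genes. *Pkm*, *Eno1* and *Ldha* had the most reads, at 4140, 3770 and 3130 CPM in si-NC without regard to length, and *Pkm*, pyruvate kinase, had a log2 fold change of 0.20 (SE 0.17, edgeR adjusted p = 0.521). With the block, *Pfkl* and *Pfkfb3* passed, against 27.2% of all tested genes. *Pfkfb3* makes the activator of phosphofructokinase and was at 255, 176 and 263 CPM in si-NC and 451, 226 and 344 CPM in si-*Snhg18*, with overlapping groups (log2 fold change 0.55, SE 0.27, adjusted p = 0.264, and 0.00785 with the block).

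Of 21 further genes of glycogen turnover, 20 were tested and 1 was called, against 7.36% of all tested genes. *Ppp1r3b*, which brings protein phosphatase to glycogen, rose from 39.7 to 55.8 CPM (log2 fold change 0.49, SE 0.09, edgeR adjusted p = 0.0295). The log2 fold changes were above 0 for 15 genes and below 0 for 5, most of which did not pass, with a median of 0.20 against 0.01 over all genes. With the replicate block 7 passed as higher (among them *Gbe1*, *Pgm1*, *Phkg2*, *Ppp1r3b*, *Ppp1r3c* and *Epm2a*) and 3 as lower (*Ugp2*, *Phka1* and *Stbd1*), 10 of 20 against 27.2% of all tested genes. Those higher included the branching enzyme *Gbe1* (84.8 and 106 CPM in si-NC and si-*Snhg18*) and phosphoglucomutase *Pgm1* (326 and 420 CPM). Without the block these had adjusted p = 0.242 and 0.325 in edgeR. The groups of *Ppp1r3b* did not overlap, while those of *Gbe1* and *Pgm1* did. The synthase *Gys1* was at 345 and 348 CPM (adjusted p = 0.968) and the lysosomal glucosidase *Gaa* at 347 and 308 CPM (adjusted p = 0.153).

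On the creatine list, the transporter *Slc6a8* rose from 234, 249 and 235 CPM to 304, 285 and 288 CPM (log2 fold change 0.29, SE 0.06, edgeR adjusted p = 0.0469), a call that was lost without the filter on low counts. The enzymes of creatine synthesis *Gamt* and *Gatm* did not pass (adjusted p = 0.490 and 0.633). The ubiquitous mitochondrial creatine kinase *Ckmt1* had at most 2 reads in a library.

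A second list held 20 other isoforms or proteins that are enriched in striated muscle. Of these, 12 were tested and none passed (6 higher, 6 lower, median log2 fold change -0.08), against 7.36% of all tested genes. In edgeR 4 were under an unadjusted p of 0.05, against 3613 of all 14531 tested genes. DESeq2 called 2, against 2124 over all tested genes. The untested ones, among them *Ampd1*, *Slc2a4*, *Fbp2*, myoglobin (*Mb*) and *Cox8b*, had at most 22 reads in a library over the list. *Aldoa* and *Pkm*, which encode the aldolase and pyruvate kinase of muscle and are also expressed widely, had log2 fold changes of 0.10 (SE 0.14, adjusted p = 0.716) and 0.20. With the block *Ppp1r3c* passed as higher and *Phka1*, *Slc25a4* and *Ppp1r3a* as lower, against 27.2% of all tested genes. *Slc25a4*, the ADP/ATP carrier of heart and muscle, was at 316, 336 and 311 CPM in si-NC and 223, 277 and 242 CPM in si-*Snhg18* (log2 fold change -0.38, SE 0.09, adjusted p = 0.0641, and 0.00539 with the block). *Ppp1r3a*, the muscle glycogen-targeting subunit of protein phosphatase, was low but apart between the groups, at 3.41, 2.57 and 3.22 CPM and at 1.27, 1.27 and 1.81 CPM (log2 fold change -1.09, SE 0.25, adjusted p = 0.0540, and 0.0188 with the block). Their 25 counterparts from other tissues had 20 tested genes, of which *Ppp1r3b* alone passed (15 higher, 5 lower, median 0.16), against 7.36% of all tested genes. With the block 5 passed as higher (*Pfkl*, *Phkg2*, *Ampd2*, *Ppp1r3b* and *Fabp5*) and *Cygb* as lower, against 27.2% of all tested genes. *Hk1* and *Slc2a1*, both with many reads, had edgeR adjusted p = 0.689 and 0.883 without the block.

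Genes of the contractile apparatus of striated muscle were hardly read. Of 37 markers, 9 were tested, 10 had no read in any library, and the other untested ones had at most 15 reads in a library. None of the 9 passed, against 7.36% of all tested genes (median log2 fold change -0.40). An unadjusted p under 0.05 was reached by 1 in edgeR and none in DESeq2, against 3613 and 3735 of all 14531 tested genes. The summed level was 58.2 to 83.4 CPM in si-NC and 31.8 to 71.7 CPM in si-*Snhg18*, most of it from skeletal actin, *Acta1*, at 38.1, 62.2 and 43.4 CPM in si-NC and 10.5, 51.1 and 18.7 CPM in si-*Snhg18* (adjusted p = 0.399, and 0.0210 with the block). Troponin T *Tnnt2* passed with the block as higher, at 4.52 and 6.59 CPM. Of 17 regulators of muscle genes, 10 were tested and 1 was called, against 7.36% of all tested genes. *Esrra*, a nuclear receptor of mitochondrial and muscle energy genes, rose from 30.3 to 45.7 CPM (log2 fold change 0.59, SE 0.08, edgeR adjusted p = 0.0153). *Mef2d* passed with the block as higher, and *Mef2a* and *Srf* did not pass (adjusted p = 0.810 and 0.806).

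Of 12 smooth muscle markers tested, 1 passed, against 7.36% of all tested genes. The log2 fold changes were below 0 for 9 and above 0 for 3 (median -0.32, against 0.01 over all tested genes). *Tagln* fell from 679, 692 and 681 CPM to 435, 562 and 445 CPM (log2 fold change -0.51, SE 0.11, edgeR adjusted p = 0.0427). With the block *Cald1*, *Cnn1*, *Myh11* and *Des* passed as lower too, where 27.2% of all tested genes passed and 13.6% passed and were lower. DESeq2 called 4 of the list and limma-voom 1, against 2124 and 1036 of all 14531 tested genes. None passed edgeR with library totals in place of TMM, against 1105 over all tested genes. The summed level was 3710 to 3870 CPM in si-NC and 2790 to 3680 CPM in si-*Snhg18*. Of markers of other cell types, *Cd53* fell from 109 to 50.7 CPM (log2 fold change -1.10, SE 0.10, edgeR adjusted p = 0.00727). None of the tested endothelial, fibroblast or epithelial markers passed in edgeR, DESeq2 or limma-voom, against 7.36% of all tested genes in edgeR. In edgeR 1, 1 and 0 of them had an unadjusted p under 0.05, against 3613 of all 14531 tested genes. With the block *Tek*, *Pdgfra* and *Krt18* passed as lower and the leukocyte marker *Cd14* as higher. In that fit 27.2% of all tested genes passed, and 13.6% passed and were lower. The summed levels in si-NC and si-*Snhg18* were 113 to 155 and 72.1 to 111 CPM for 9 leukocyte markers, 12.5 to 14.0 and 13.4 to 15.4 CPM for 8 endothelial markers, 515 to 584 and 376 to 507 CPM for 7 fibroblast markers and 7.24 to 22.7 and 1.19 to 7.42 CPM for 6 epithelial markers. The part of these shifts in the values of *Eno3*, *Ckb* and *Pygb* was not tested. The calls of *Ppp1r3b*, *Slc6a8*, *Esrra*, *Tagln* and *Cd53* were lost, with those of all other genes, without si-NC 1, si-NC 3 or si-*Snhg18* 3, and all but that of *Cd53* also without si-NC 2 or si-*Snhg18* 1.

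**Figure D4:**
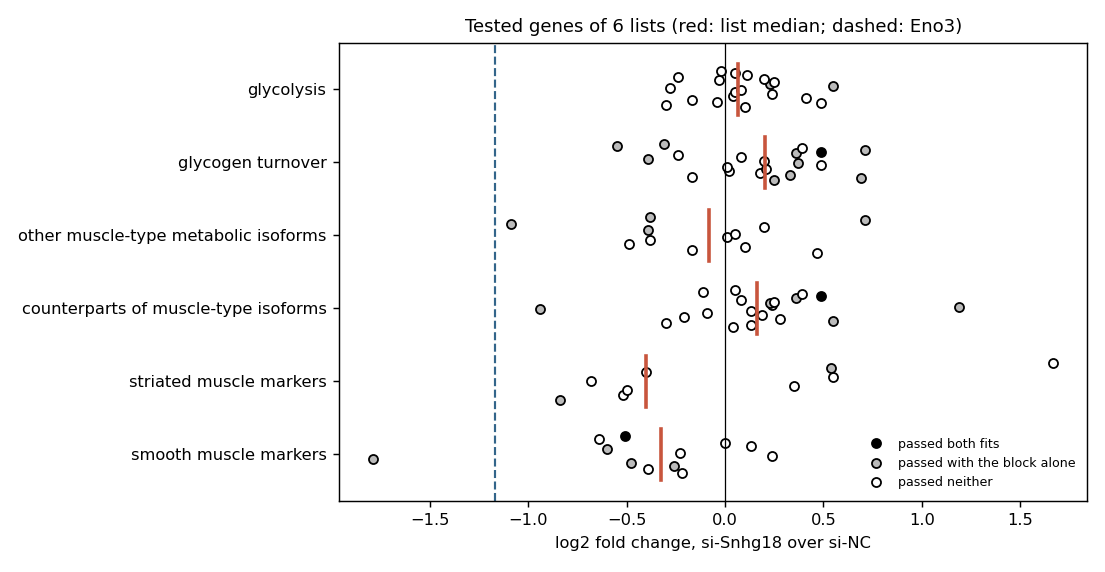
Log2 fold change of si-*Snhg18* over si-NC for the tested genes of 6 lists outside the set, 1 point per gene, filled black where the gene passed an adjusted p of 0.05 with and without the replicate block, grey where it passed with the block alone and white where it passed neither. The red bars are list medians (from -0.40 to 0.20), and the dashed line is *Eno3* at -1.17. Only *Des*, at -1.79, lies below that line on these lists. *Fabp5* lies on the other side of 0, at 1.19.

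The genes most like *Eno3* across the 6 libraries were ranked over 11849 tested genes that averaged 1 or more in log2 CPM. By Pearson correlation of log2 CPM they were *Tmed2*, a cargo receptor of the early secretory pathway (r = 0.9992), *Capza2*, a subunit of the actin capping protein (0.9982), *Srpr*, a subunit of the signal recognition particle receptor (0.9980), *Npm1*, nucleophosmin (0.9975), and *Rfk*, riboflavin kinase (0.9972), with Spearman's rho of 0.829 to 1. All 5 were lower in every si-*Snhg18* library, with log2 fold changes of -0.35 (*Srpr*) to -0.83 (*Tmed2*) for 4 of them, and *Rfk*, the nearest to *Eno3* in level and in size of change, was at 42.0 and 21.0 CPM. These points share the group difference and the libraries. By deviations from the group means, which remove that difference, they were *Ppip5k2*, *Carnmt1*, *Hdac6*, *Dpy30* and *Rps27l* (r = 0.9870 to 0.9997), at mean levels of 11.9 to 73.0 CPM. Of these, *Rps27l* had an edgeR adjusted p = 0.0828, and 0.0295 with the block, and the others passed neither way. No gene stood on both rankings, and no isozyme member stood on either. Each ranking kept only 5 of 11849 genes, so nothing is read from these absences. Whether correlations this high over 6 libraries exceed chance was not tested.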

How the data were processed

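RNA sequencing of mPASMCs was analysed, with 3 si-NC and 3 si-*Snhg18* libraries grouped by their sample labels. The authors prepared TruSeq Stranded mRNA libraries and deposited whole-number counts of reads per gene, not normalized, with the exon length of each gene as another deposited value. The submitters' processing notes name HISAT2 and mm10. The counting program, strand setting, read length and rules for shared reads are not given in the sources used here. The table held counts of these 6 libraries only. Library totals were 18097718 to 25988746 reads.

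Counts were tested with the quasi-likelihood test of edgeR 4.0.16 in R 4.3.3 (TMM, filterByExpr with a minimum count of 10) and Benjamini-Hochberg adjustment over the 14531 of 55487 genes kept. edgeR's common BCV, the coefficient of variation between libraries, was 0.218. The fit was tested on simulated data with known changes, the same spread for every gene and no effect of the replicate number. That simulation cannot check how the fit handles the likeness of same-numbered libraries. CPM and CPM per kilobase of deposited exon length were computed from TMM-scaled totals, and log2 CPM used a prior count of 2. Alternatives were DESeq2 1.42.0, limma-voom 3.58.1, other scalings and filters, the replicate block and fits without each library. Fits without both libraries numbered 2 were added after seeing the data. A fit with 2 libraries in a group uses a spread shared by both groups.

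Replicate numbers come from the labels. The deviations of same-numbered libraries from their group means correlated (r = 0.41, 0.742 and 0.359 over 14531 genes). The main fit did not use the numbers. The fit with the replicate block took them to pair the libraries, and its values stand beside results whose call they change. With 3 libraries a group, exact permutation p-values of single genes could not pass the threshold, and none was run.

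The members and the 13 gene lists were chosen with earlier results of these data known. Of the listed symbols, *Aldoa* was on more than 1 row, and the row with most reads was used. Genes named were the members and *Snhg18*, *Eno1*, *Eno2*, *Pfkl* and *Pfkp*, up to 6 called genes and the 3 with most CPM of each list, genes overlapping a member, and the 5 genes most like *Eno3* by each measure. Genes called with the block alone, processed copies of members, and genes listed as having no or few reads fall outside this rule and were named after their values were seen. Shared 50-base windows were searched exactly on both strands in GENCODE M21 transcripts. Promoter windows are from RefSeq. The oligonucleotides of the study were not used here. The values of 1 listed gene are not reported here.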

Additional observations from a re-analysis of the deposited data

How the results depend on the processing

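The number of genes called over the whole table (1069) was 2124 with DESeq2, 3954 with the replicate block, 4020 without both libraries numbered 2, and 0 to 3282 when 1 library was left out (0 without si-NC 1, si-NC 3 or si-*Snhg18* 3, 158 without si-NC 2, 319 without si-*Snhg18* 1 and 3282 without si-*Snhg18* 2). The number of members called (1) was 3 with DESeq2, with the replicate block and without both libraries numbered 2, and 0 to 3 without 1 library. The log2 fold change of *Eno3* was -1.26 to -1.07 without 1 library, and its call was lost without si-NC 1, si-NC 3 or si-*Snhg18* 3. Since its fall chose the set, no support is read from its call in any fit. Of the 107 tested genes on the lists outside the set, 5 were called, where 7.36% of all 14531 tested genes were. The number was 14 with DESeq2 (2124 over all tested genes) and 32 with the replicate block (27.2% over all tested genes). It was 40 without both libraries numbered 2 and 0 to 30 without 1 library. These counts stayed within 1.5 times with RLE factors, limma-voom, library totals without TMM and both other filters. The cause of these differences was not tested. The block changed no call of a named gene other than those given with the results.

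*Pgam1* and *Pfkm*, neither of them called, changed sign in some fits. Without 1 library their log2 fold changes were -0.13 to 0.23 and -0.04 to 0.06. Those of *Ckb*, *Pygb* and *Pygl* stayed below 0, at -0.41 to -0.29, -0.31 to -0.22 and -0.26 to -0.15. As a share of counted reads in place of reads per kilobase, *Eno3* made up 1.04% and 0.483% of enolase and *Pfkm* 4.35% and 3.79% of phosphofructokinase in si-NC and si-*Snhg18*. With 3 libraries a group, unknown counting rules and the library totals given, levels of *Pgam2* and *Pygm* could not be compared.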
